A study of Mus musculus with 6 samples.

Results

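The enzymes that conjugate drugs, steroids and dietary compounds were followed along the mouse colon: the UDP-glucuronosyltransferases (Ugt), the sulfotransferases (Sult) and the glutathione transferases (Gst). Members were taken by symbol, as every entry of the Ugt1, Ugt2, Sult1 to Sult6 and alpha, kappa, mu, omega, pi, theta and zeta Gst families, which gave 58 of 24346 entries. Of these, 30 were detected, meaning an expression value of at least 1 FPKM in 2 or more libraries: 7 of 18 Ugt, 5 of 19 Sult and 18 of 21 Gst entries. FPKM is a fragment count divided by transcript length and by sequencing depth. The RNA was from epithelial cells of distal, middle and proximal colon. All mice were wild-type C57BL/6J, an inbred laboratory strain, and received no treatment, and each region has 1 female and 1 male library. Age, the number of mice behind a library and whether the regions of a sex share mice are not in the labels. The p-values therefore describe variation among 6 libraries, part of which may be technical.

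Conjugation makes lipophilic molecules water soluble, so that they can be exported into bile, urine or the gut lumen. Ugt enzymes sit in the endoplasmic reticulum and transfer glucuronic acid from UDP-glucuronic acid, Sult enzymes are cytosolic and transfer sulfate from the donor PAPS, and most Gst enzymes are cytosolic and add glutathione to electrophiles. The gut epithelium is known as a site where phenols, steroids and orally taken drugs are conjugated before they reach the liver. Depth was estimated at 7880000 to 9880000 fragments per library from the steps between low values, and the summed level of 8 epithelial markers was 8770.03 to 10387 FPKM. Of 5 hepatocyte markers, Fgb and Serpina1a were listed at 0 in all 6 libraries and Alb was at most 1.31 FPKM, while Ttr was at 44.1 (female) and 42.9 (male) FPKM in distal and 5.16 (female) and 2.69 (male) FPKM in proximal colon.

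The Ugt1a entries are transcripts of a single locus on chromosome 1 (mm10), in which alternative first exons are spliced to the same 4 exons. In the GENCODE M21 annotation the coding bases after exon 1 were identical in all the Ugt1a entries, 735 of 1605 coding bases in Ugt1a1 and of 1593 in Ugt1a6a and Ugt1a7c. The splice junctions are shown because the bases before them differ among the 3 detected entries, with the last 20 bases of exon 1 in lower case and the first 20 of the shared exon 2 (from base 88215044) in capitals.
Ugt1a1: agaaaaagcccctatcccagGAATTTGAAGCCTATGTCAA
Ugt1a6a: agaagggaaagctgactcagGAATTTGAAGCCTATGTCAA
Ugt1a6b: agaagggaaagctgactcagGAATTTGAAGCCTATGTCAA
Ugt1a7c: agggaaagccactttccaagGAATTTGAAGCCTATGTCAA
The coding part of exon 1 of Ugt1a1 shared 61.2% of aligned bases with that of Ugt1a6a and 59.8% with that of Ugt1a7c, whereas Ugt1a6a and Ugt1a6b shared 97.0% and have the same last 20 bases. A read inside the shared exons matches every Ugt1a transcript, so the split between these entries rests on reads that touch the first exons. How the authors' counting treated such reads is not given in the sources used here.

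Because each Ugt1a first exon has its own start, the promoter windows differ. RefSeq windows (GRCm38.p6, 250 bases before to 50 after an annotated start) matched 28 of the 30 detected members and were searched on both strands for the letters of a site of HNF1, a transcription factor of liver and gut epithelium (GTTAAT, any base, then ATT), the core of the antioxidant response element (TGACNNNGC), the core of the xenobiotic response element (GCGTG) and an HNF4 site (CAAAGTCCA). The HNF1 letters stood in 2 of 28 detected members, Ugt1a1 and Sult1d1, against 0.465% of all 17191 genes of the table with a window, and also in 6 of 23 members that were not detected (Ugt1a9, Ugt1a10 and Sult2a3 to Sult2a6). The antioxidant letters stood in 3 of 28 (Gsta3, Gstm5 and Gstm7) against 15.0% of genes, the xenobiotic letters in 7 of 28 against 42.2%, and the HNF4 letters in 1 of 28 (Sult1b1) against 0.564%. These shares are over all genes with a window, detected or not. Of 9033 such genes with at least 1 FPKM in 2 or more libraries, 28 held the HNF1, 1557 the antioxidant, 5111 the xenobiotic and 53 the HNF4 letters. The windows of the members that differed between distal and proximal colon and held the HNF1 or antioxidant letters are printed with those letters in capitals, together with that of Ugt1a7c, chosen after its values were seen, in which none of the searched letters occurred.
Ugt1a1 promoter (chr1:88211709-88212008, plus strand): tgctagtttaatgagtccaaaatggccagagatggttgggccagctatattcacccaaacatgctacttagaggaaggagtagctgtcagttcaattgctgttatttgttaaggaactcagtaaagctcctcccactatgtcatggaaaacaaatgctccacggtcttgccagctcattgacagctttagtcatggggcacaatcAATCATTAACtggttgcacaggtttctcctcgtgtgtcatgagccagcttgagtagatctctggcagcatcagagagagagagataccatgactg
Sult1d1 promoter (chr5:87568957-87569256, minus strand): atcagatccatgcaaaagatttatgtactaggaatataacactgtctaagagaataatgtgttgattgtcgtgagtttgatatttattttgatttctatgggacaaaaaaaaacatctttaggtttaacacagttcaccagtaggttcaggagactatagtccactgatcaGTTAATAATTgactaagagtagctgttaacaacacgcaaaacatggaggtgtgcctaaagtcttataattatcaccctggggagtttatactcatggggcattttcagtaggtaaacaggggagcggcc
Gstm7 promoter (chr3:107931565-107931864, minus strand): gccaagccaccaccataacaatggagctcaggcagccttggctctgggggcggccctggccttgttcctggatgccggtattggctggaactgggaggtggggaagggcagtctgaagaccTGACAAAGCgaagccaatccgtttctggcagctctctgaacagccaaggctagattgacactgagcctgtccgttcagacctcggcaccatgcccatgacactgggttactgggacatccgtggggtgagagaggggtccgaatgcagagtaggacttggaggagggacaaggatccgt
Ugt1a7c promoter (chr1:88094751-88095050, plus strand): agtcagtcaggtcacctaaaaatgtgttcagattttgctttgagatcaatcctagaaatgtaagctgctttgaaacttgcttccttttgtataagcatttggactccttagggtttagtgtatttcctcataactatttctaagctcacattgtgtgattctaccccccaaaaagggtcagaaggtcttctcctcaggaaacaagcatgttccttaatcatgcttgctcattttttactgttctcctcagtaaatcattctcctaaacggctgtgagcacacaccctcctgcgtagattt
The match begins 45 bases before the start in Ugt1a1, on the opposite strand, 79 bases before it in Sult1d1 and 129 bases before it in the second of 2 Gstm7 windows. That Gstm7 match lies inside the gene as annotated in GENCODE M21 (107926334 to 107931817, minus strand), not before it. These are matches of letters, not measured binding.

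**Figure D1:**
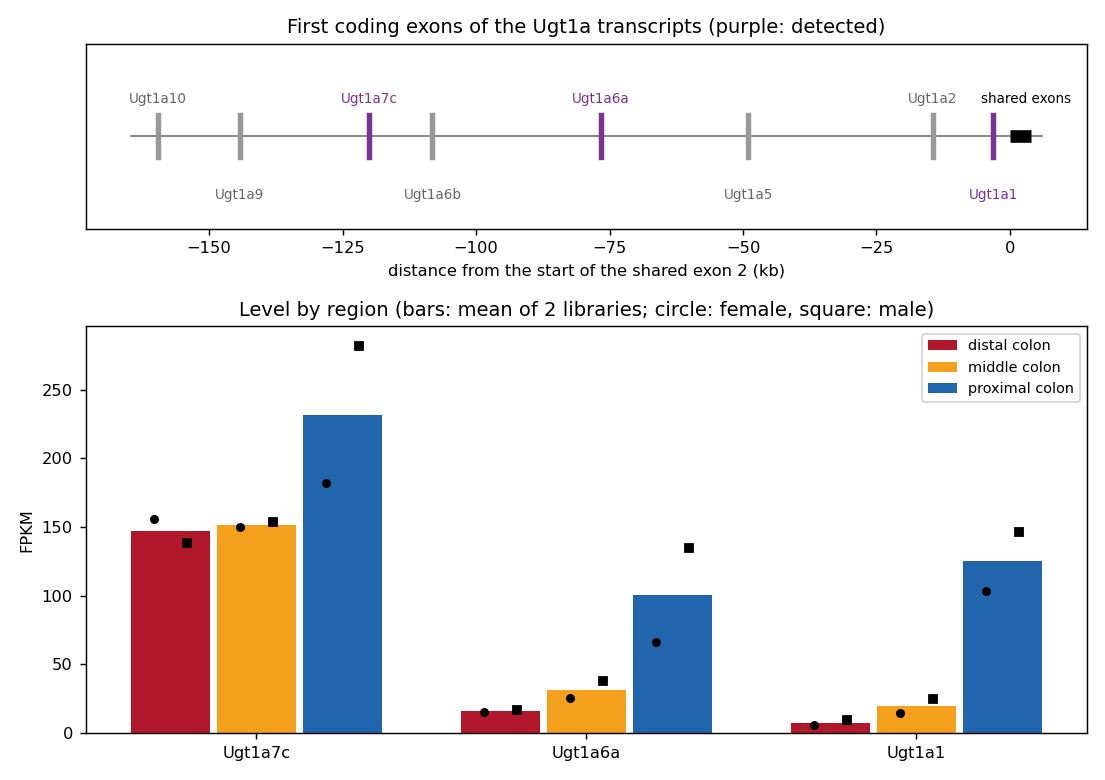
Upper panel: positions of the first coding exons of the Ugt1a entries, in kb from the start of the shared exon 2, with detected entries in purple and the shared exons as a black bar. Lower panel: FPKM of the 3 detected Ugt1a entries, with bars for the mean of 2 libraries per region, circles for female and squares for male libraries; Ugt1a1 averaged 7.56 FPKM in distal and 125 FPKM in proximal colon, and Ugt1a7c 147 FPKM in distal and 232 FPKM in proximal colon.

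The comparison of distal with proximal colon asked which conjugation enzymes differ between the ends of the colon. In distal colon 4 of 7 Ugt and 4 of 5 Sult members fell, while among 18 Gst members 2 fell and 2 rose. Of 30 detected members, 10 fell and 2 rose in distal colon, and 18 did not pass the test (limma on log2(FPKM + 1) with region and sex as terms, Benjamini-Hochberg adjusted over 11815 genes, threshold 0.05). Over all 11815 genes the test called 14.1% (6.47% higher and 7.64% lower in distal colon). The lower members were Ugt1a1, Ugt1a6a, Ugt2b5, Ugt2b36, Sult1a1, Sult1c2, Sult1d1, Sult2b1, Gstk1 and Gsta4, and the higher members were Gstm6 and Gstm7. The median log2 difference was -0.54 over 5 Sult members and -0.01 over 18 Gst members, beside 0.01 over all genes tested. Both distal libraries lay below both proximal libraries in 15 of 30 members, against 29.5% of all genes, and above them in 8 of 30, against 30.8%. The middle mean lay between the distal and proximal means in 24 of 30 members, against 54.0% of all genes. Ugt2b36 reached 1 FPKM in its proximal libraries alone, so it entered the test only through the region where it is high, and its place in these counts supports nothing. Ugt2b5 reached 1 FPKM in both proximal libraries and the male middle library, so it too needed a proximal library to enter. Its place in these counts supports nothing either. In RNA from whole cell populations, fewer cells of a type and less RNA per cell cannot be told apart. Without the male distal library 6 members were called and without the female distal library 7, all lower in distal colon, and in both cases Sult1a1, Sult1c2, Sult2b1, Gstm6 and Gstm7 were not called. Without the female proximal library 14 members were called, all lower in distal colon, among them Ugt1a7c, Gsta1, Gstm3, Gstp1 and Gstz1, which were not called with all 6 libraries.

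**Figure D2:**
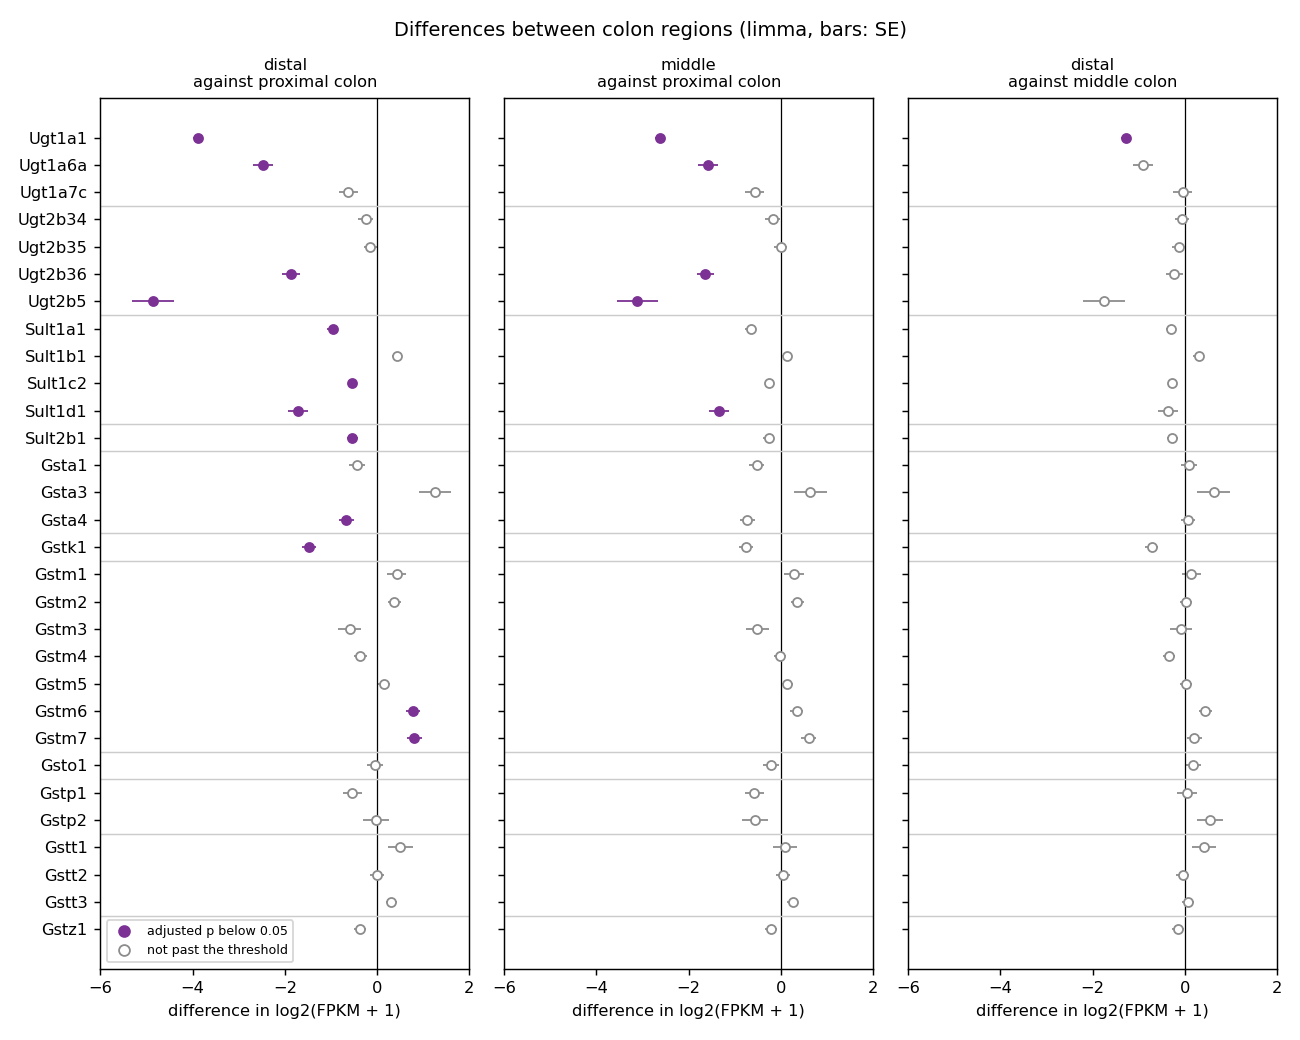
Differences in log2(FPKM + 1) for the 30 detected members, in a panel per comparison of regions (points: limma estimate over 6 libraries, bars: SE, filled purple: adjusted p below 0.05). Filled points number 12 in the distal against proximal panel (10 to the left of 0), 5 in the middle against proximal panel and 1 in the distal against middle panel; Ugt2b5 was listed at 0 in both distal libraries, so its distal points show no fold.

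Among the Ugt1 enzymes, Ugt1a1, which glucuronidates bilirubin, had the largest fitted difference between distal and proximal colon. Ugt1a1 (chromosome 1, 88211959 to 88218997) was at 5.78 (female) and 9.34 (male) FPKM in distal colon, 14.7 (female) and 25.0 (male) FPKM in middle colon and 104 (female) and 146 (male) FPKM in proximal colon. The 3 regions did not overlap, and Ugt1a1 fell in distal colon (log2 difference -3.89 ± 0.11 SE, adjusted p by limma = 0.000401). Ugt1a6a (chromosome 1, 88134809 to 88218997), an enzyme for small planar phenols, was at 15.6 (female) and 16.7 (male) FPKM in distal colon, 25.5 (female) and 37.5 (male) FPKM in middle colon and 66.4 (female) and 135 (male) FPKM in proximal colon. The regions again did not overlap, and Ugt1a6a fell in distal colon (log2 difference -2.48 ± 0.22 SE, adjusted p by limma = 0.00358). Both calls held when any single library was left out. Ugt1a7c, a phenol-conjugating enzyme whose first exon lies further upstream, was at 156 (female) and 138 (male) FPKM in distal colon, 149.8 (female) and 154 (male) FPKM in middle colon and 182 (female) and 282 (male) FPKM in proximal colon. Its distal and middle libraries overlapped, and the distal difference did not pass the test (log2 difference -0.62 ± 0.20 SE, adjusted p by limma = 0.112), although it did without the female proximal library. As a share of the summed Ugt1a FPKM, Ugt1a7c made up 87.8% (female) and 84.1% (male) in distal, 78.4% (female) and 70.6% (male) in middle and 51.4% (female) and 49.9% (male) in proximal colon. Ugt1a1 made up 3.26% (female) and 5.67% (male) of it in distal, 7.68% (female) and 11.5% (male) in middle and 29.3% (female) and 25.9% (male) in proximal colon.

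The Ugt2b enzymes, which conjugate steroids among other compounds, lie in a cluster on chromosome 5 and comprised 2 members called between regions and 2 that were not. Ugt2b5 (chromosome 5, 87124960 to 87140318) was at 0 (female) and 0 (male) FPKM in distal colon, 0.718 (female) and 5.58 (male) FPKM in middle colon and 23.6 (female) and 33.4 (male) FPKM in proximal colon. Both distal libraries list it at 0, and it passed the test (limma adjusted p = 0.00422), with no fold given against a group at 0. It reached 1 FPKM in the male middle and both proximal libraries. It thus met the filter of 2 libraries only with a proximal one, and its call is a description. Ugt2b36 (chromosome 5, 87065927 to 87092555) was at 0.179 (female) and 0.528 (male) FPKM in distal colon, 0.42 (female) and 0.746 (male) FPKM in middle colon and 3.18 (female) and 4.74 (male) FPKM in proximal colon. Both proximal libraries stood above the other 4, and Ugt2b36 was called lower in distal colon (log2 difference -1.87 ± 0.19 SE, adjusted p by limma = 0.00504), a difference of -3.25 with a pseudocount of 0.1. Since it passed the filter only through the proximal libraries, this is a description. Ugt2b5 and Ugt2b36 both stayed lower in distal colon without any single library. The filter had been applied to all 6 libraries, so this adds no support. Ugt2b34, the most abundant Ugt entry on average, was at 211 (female) and 170.1 (male) FPKM in distal colon, 219 (female) and 179.7 (male) FPKM in middle colon and 209 (female) and 243 (male) FPKM in proximal colon. Its distal and proximal libraries overlapped (log2 difference -0.25 ± 0.16 SE, adjusted p by limma = 0.376). Ugt2b35 ranged from 11.9 to 15.7 FPKM over the 6 libraries, with overlapping regions and no call in any comparison. The Ugt2b34 coding sequence shared 73.6% of aligned bases with that of Ugt2b5, and Ugt2b36 shared 88.8% with Ugt2b5. Ugt2b5 is 97.0% identical to Ugt2b38 and 94.7% to Ugt2b37, both listed at 0 in all 6 libraries, so the split of reads between these copies is uncertain.

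**Figure D3:**
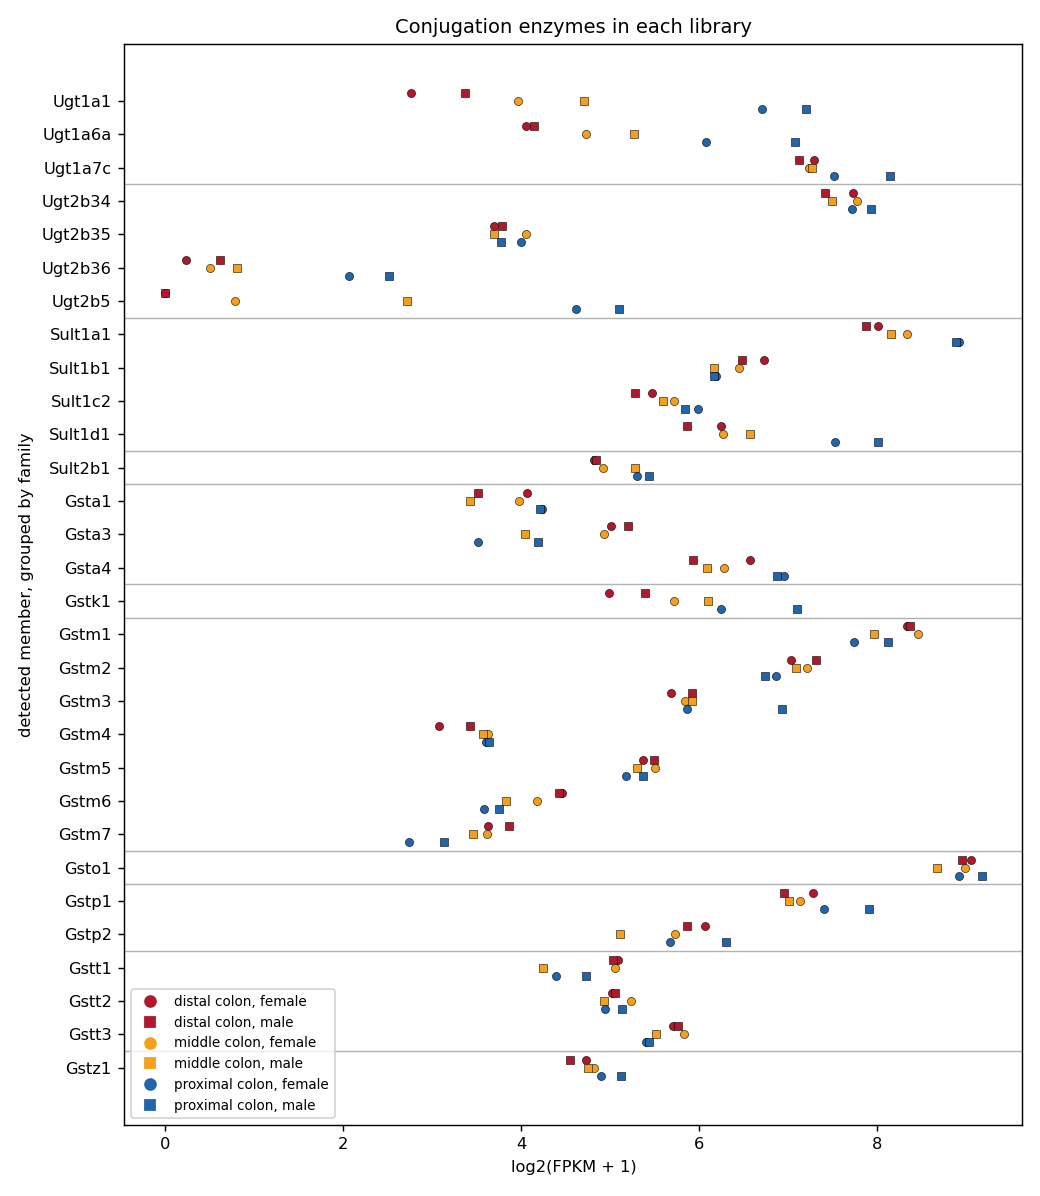
log2(FPKM + 1) of the 30 detected members in each library (colours: region, circles: female, squares: male, lines separate families). Ugt1a1, Ugt1a6a and Ugt2b5 run from low distal to high proximal values, while Gsto1, Gstt2 and Ugt2b34 have overlapping distal and proximal points.

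Sulfotransferases fell in distal colon in 4 of 5 detected members. Sult1a1 (chromosome 7, 126672865 to 126676432), the main phenol sulfotransferase, was the most abundant of them. It was at 258 (female) and 233 (male) FPKM in distal colon, 323 (female) and 285 (male) FPKM in middle colon and 485 (female) and 473 (male) FPKM in proximal colon. The regions were in separate ranges, and Sult1a1 fell in distal colon (log2 difference -0.96 ± 0.11 SE, adjusted p by limma = 0.00756). Sult1d1 (chromosome 5, 87554645 to 87569027), known in mice for sulfating catecholamines, was at 75.1 (female) and 57.2 (male) FPKM in distal colon, 76.0 (female) and 93.8 (male) FPKM in middle colon and 184 (female) and 256 (male) FPKM in proximal colon. Both proximal libraries were above the other 4, while the female distal and female middle values were close, and Sult1d1 fell in distal colon (log2 difference -1.71 ± 0.22 SE, adjusted p by limma = 0.00880). Sult1c2 (chromosome 17, 53829637 to 53846339) was at 43.3 (female) and 37.9 (male) FPKM in distal colon, 51.6 (female) and 47.4 (male) FPKM in middle colon and 62.7 (female) and 56.5 (male) FPKM in proximal colon. Its change was smaller but the regions did not overlap (log2 difference -0.54 ± 0.09 SE, adjusted p by limma = 0.0189). Sult2b1 (chromosome 7, 45729983 to 45784669), a sulfotransferase for cholesterol and other sterols, was at 27.3 (female) and 27.8 (male) FPKM in distal colon, 29.4 (female) and 38.0 (male) FPKM in middle colon and 38.5 (female) and 42.5 (male) FPKM in proximal colon. Its distal libraries lay below all others (log2 difference -0.54 ± 0.12 SE, adjusted p by limma = 0.0377). Sult1b1, which sulfates phenols and thyroid hormones, was at 105 (female) and 88.3 (male) FPKM in distal colon, 86.7 (female) and 71.0 (male) FPKM in middle colon and 72.1 (female) and 70.9 (male) FPKM in proximal colon. It was the only detected Sult with a fitted increase in distal colon, which did not pass the test (log2 difference 0.43 ± 0.11 SE, adjusted p by limma = 0.0621) except without the male proximal library. The Sult1d1 call held without any single library. Without the female or male distal library the adjusted p was 0.0645 or 0.104 for Sult1a1, 0.119 or 0.198 for Sult1c2 and 0.103 or 0.312 for Sult2b1, and for Sult2b1 it was 0.0921 or 0.0673 without the female or male proximal library.

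Of the 8 detected Gst enzymes outside the mu and theta families, 2 fell in distal colon and 6 were not called. Gstk1 (chromosome 6, 42245935 to 42250447), the kappa enzyme of mitochondria and peroxisomes, was at 30.8 (female) and 41.0 (male) FPKM in distal colon, 51.8 (female) and 67.7 (male) FPKM in middle colon and 74.8 (female) and 136 (male) FPKM in proximal colon. The regions did not overlap, and Gstk1 fell in distal colon (log2 difference -1.48 ± 0.15 SE, adjusted p by limma = 0.00489), also without any single library. Gsta4 (chromosome 9, 78182774 to 78209349), which conjugates the lipid peroxidation product hydroxynonenal, was at 94.5 (female) and 59.8 (male) FPKM in distal colon, 77.0 (female) and 67.0 (male) FPKM in middle colon and 123 (female) and 117 (male) FPKM in proximal colon. Both proximal libraries were above the other 4, and the decrease in distal colon was close to the threshold (log2 difference -0.67 ± 0.16 SE, adjusted p by limma = 0.0498). With a pseudocount of 0.1 its adjusted p by limma was 0.0528, and with quantile normalization 0.0525. It was 0.0937 without a filter, 0.0754 without the variance trend and 0.111 without sex in the model. With a filter at 5 FPKM it was 0.0498 and with median-ratio scaling 0.0470. Without the male distal, female middle, male middle or male proximal library it was 0.333, 0.0842, 0.0838 or 0.132. Gsta3, an alpha enzyme known in mice for detoxifying aflatoxin epoxide, ran the other way, at 31.2 (female) and 35.8 (male) FPKM in distal colon, 29.4 (female) and 15.5 (male) FPKM in middle colon and 10.4 (female) and 17.2 (male) FPKM in proximal colon. Its female middle and distal values were close, and the difference did not pass the test (log2 difference 1.25 ± 0.35 SE, adjusted p by limma = 0.0782) but did without the male proximal library or either middle library. Gsta1 ranged over 9.73 to 17.8 FPKM, highest in the proximal libraries (log2 difference -0.44 ± 0.17 SE, adjusted p by limma = 0.154).

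The pi enzymes, omega enzyme and zeta enzyme were not called between regions with all 6 libraries. Gstp1, a widely expressed detoxifying enzyme, was at 155 (female) and 123 (male) FPKM in distal colon, 140.02 (female) and 128 (male) FPKM in middle colon and 168 (female) and 239 (male) FPKM in proximal colon. Both proximal values were above the other 4 (log2 difference -0.54 ± 0.21 SE, adjusted p by limma = 0.163). Gstp2 was at 66.1 (female) and 57.1 (male) FPKM in distal colon, 52.1 (female) and 33.6 (male) FPKM in middle colon and 50.01 (female) and 77.8 (male) FPKM in proximal colon. Its female libraries were higher in distal than in proximal colon and its male libraries lower (log2 difference -0.02 ± 0.29 SE, adjusted p by limma = 0.970). The coding sequences of Gstp1 and Gstp2 are 98.1% identical and those of Gsta1 and Gsta2 97.6%, so the split of reads within each of these pairs is uncertain. Gsto1, which reduces dehydroascorbate and carries out thiol transfer, had the highest mean FPKM of the members over the 6 libraries. It was at 532 (female) and 497 (male) FPKM in distal colon, 508 (female) and 408 (male) FPKM in middle colon and 484 (female) and 577 (male) FPKM in proximal colon. Its regions overlapped, and in the female proximal library Sult1a1 was slightly higher (log2 difference -0.04 ± 0.17 SE, adjusted p by limma = 0.908 for Gsto1). Gstz1, an isomerase of tyrosine breakdown, was at 25.5 (female) and 22.3 (male) FPKM in distal colon, 27.3 (female) and 25.9 (male) FPKM in middle colon and 28.9 (female) and 33.9 (male) FPKM in proximal colon. Its lowest values were in the distal libraries (log2 difference -0.38 ± 0.13 SE, adjusted p by limma = 0.125).

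The mu enzymes lie in a cluster on chromosome 3, between 107895821 and 108044894, and 5 of 7 had a fitted increase in distal colon. Gstm6 (chromosome 3, 107938847 to 107943749) was at 21.1 (female) and 20.5 (male) FPKM in distal colon, 17.0 (female) and 13.2 (male) FPKM in middle colon and 10.9 (female) and 12.5 (male) FPKM in proximal colon. Gstm7 (chromosome 3, 107926334 to 107931817) was at 11.3 (female) and 13.6 (male) FPKM in distal colon, 11.3 (female) and 10.03 (male) FPKM in middle colon and 5.68 (female) and 7.81 (male) FPKM in proximal colon. In both genes the distal libraries were above the proximal ones, and both rose in distal colon (Gstm6: log2 difference 0.78 ± 0.15 SE, adjusted p by limma = 0.0264; Gstm7: log2 difference 0.81 ± 0.16 SE, adjusted p by limma = 0.0305). Neither call held without the female distal library (adjusted p 0.120 for Gstm6 and 0.117 for Gstm7), the male distal library (0.187 and 0.217) or the female proximal library (0.0663 and 0.0890).

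The abundant mu enzymes were not called in any comparison of regions with all 6 libraries. Gstm1 was at 323 (female) and 329.6 (male) FPKM in distal colon, 349.9 (female) and 249.7 (male) FPKM in middle colon and 213 (female) and 278 (male) FPKM in proximal colon. Gstm2 was at 130.2 (female) and 158 (male) FPKM in distal colon, 148 (female) and 135 (male) FPKM in middle colon and 116 (female) and 106 (male) FPKM in proximal colon. For both, the distal libraries were above the proximal ones, by less than the test required (log2 difference 0.42 ± 0.21 SE, adjusted p by limma = 0.265 for Gstm1 and log2 difference 0.37 ± 0.14 SE, adjusted p by limma = 0.149 for Gstm2). Gstm3 was at 50.3 (female) and 59.5 (male) FPKM in distal colon, 56.6 (female) and 59.6 (male) FPKM in middle colon and 57.4 (female) and 121 (male) FPKM in proximal colon. A single library, the male proximal one, stood apart from the other 5 (log2 difference -0.60 ± 0.24 SE, adjusted p by limma = 0.179). Gstm5 was at 40.3 (female) and 44.1 (male) FPKM in distal colon, 44.4 (female) and 38.5 (male) FPKM in middle colon and 35.3 (female) and 40.5 (male) FPKM in proximal colon. Its regions overlapped (log2 difference 0.15 ± 0.13 SE, adjusted p by limma = 0.492). Gstm4 spanned 7.47 to 11.4 FPKM, lowest in the distal libraries (log2 difference -0.37 ± 0.14 SE, adjusted p by limma = 0.154). Coding sequences of the mu enzymes share up to 85.5% of aligned bases (Gstm2 and Gstm7).

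The theta enzymes, which act on small halogenated compounds among others, were not called between regions. Gstt1 was at 33.0 (female) and 31.8 (male) FPKM in distal colon, 32.2 (female) and 17.9 (male) FPKM in middle colon and 19.95 (female) and 25.6 (male) FPKM in proximal colon. Its male middle library was the lowest and the female middle library near the highest (log2 difference 0.50 ± 0.27 SE, adjusted p by limma = 0.286). Gstt2 was at 31.5 (female) and 32.2 (male) FPKM in distal colon, 36.7 (female) and 29.5 (male) FPKM in middle colon and 29.8 (female) and 34.2 (male) FPKM in proximal colon. This was the smallest difference of the 30 members between distal and proximal colon (log2 difference -0.0016 ± 0.14 SE, adjusted p by limma = 0.996). Gstt3 was at 51.1 (female) and 53.2 (male) FPKM in distal colon, 55.8 (female) and 44.8 (male) FPKM in middle colon and 41.4 (female) and 42.4 (male) FPKM in proximal colon. Its distal libraries were above the proximal ones (log2 difference 0.31 ± 0.13 SE, adjusted p by limma = 0.180).

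The comparison of middle with proximal colon asked where along the colon these differences arise. At an unadjusted p under 0.05 by limma, 14 of 30 members and 2164 of 11815 genes differed in middle colon. After adjustment 5 of 30 members fell there and 0 rose, beside 2.45% of all genes called (1.25% lower and 1.19% higher). The 5 were Ugt1a1 (log2 difference -2.62 ± 0.11 SE, adjusted p by limma = 0.00449), Ugt1a6a (log2 difference -1.58 ± 0.22 SE, adjusted p by limma = 0.0333), Ugt2b36 (log2 difference -1.64 ± 0.19 SE, adjusted p by limma = 0.0262), Ugt2b5 (log2 difference -3.11 ± 0.45 SE, adjusted p by limma = 0.0379) and Sult1d1 (log2 difference -1.35 ± 0.22 SE, adjusted p by limma = 0.0483). Both comparisons with proximal colon share the proximal libraries. Ugt2b36 and Ugt2b5 met the filter only with those libraries, so their calls here are a description. With a pseudocount of 0.1 the difference was -2.59 for Ugt2b36 and -3.71 for Ugt2b5, and Ugt2b36, Ugt2b5 and Sult1d1 were not called (adjusted p by limma 0.0505, 0.0729 and 0.0571). Sult1a1 had a difference of -0.66 and Gstk1 of -0.76 on the log2 scale, neither past the threshold (limma adjusted p = 0.0562 and 0.0674). Without the female middle library 0 of 30 members and 0 of 11815 genes were called (11 members at an unadjusted p under 0.05), and the adjusted p was 0.0792 for Ugt1a1, 0.170 for Ugt2b5, 0.231 for Ugt1a6a, 0.205 for Ugt2b36 and 0.291 for Sult1d1. Without the male middle library the calls of Ugt1a6a, Ugt2b36 and Sult1d1 were lost (adjusted p 0.151, 0.128 and 0.155), without the male proximal library that of Sult1d1 (0.0643), and without the female proximal library 12 members were called, all lower in middle colon.

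Between distal and middle colon, Ugt1a1 fell further (log2 difference -1.27 ± 0.11 SE, adjusted p by limma = 0.0252), and it was the 1 of 30 members called, beside 0.499% of all genes (0.389% lower and 0.11% higher in distal colon). Ugt1a6a had a difference of -0.90, Gstk1 of -0.72 and Sult1d1 of -0.36 on the log2 scale, none past the threshold (limma adjusted p = 0.190, 0.140 and 0.595). The Ugt1a1 call did not hold without the female distal (0.111), male distal (0.181), female middle (0.0727) or male middle library (0.192, limma adjusted p in each case). Without the female or the male proximal library 3 members were called, Gstk1 and Ugt1a6a besides Ugt1a1, all lower in distal colon.

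Female and male libraries were compared across the 3 regions. By limma 0 of 30 members were called, beside 0.0423% of all genes (0.00846% higher and 0.0339% lower in females). An unadjusted p under 0.05 by limma was reached by 1256 of 11815 genes and by 4 of 30 members, similar shares. The 4 were Ugt1a1, Gstk1, Ugt1a6a and Gsta1, with log2 differences of -0.61, -0.54, -0.55 and 0.37 for female against male (limma adjusted p = 0.297, 0.384, 0.438 and 0.451). Ugt1a1, Gstk1 and Ugt1a6a were lower in the female library of 3 of 3 regions, and Gsta1 was higher in the female library of 3 of 3. These 4 were picked by their unadjusted p in the same libraries, so this agreement adds no support for a difference between the sexes.

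Within each sex, the distal minus proximal difference in log2(FPKM + 1) rests on a single pair of libraries and has no error. It was -3.95 in females and -3.83 in males for Ugt1a1, -2.02 in females and -2.94 in males for Ugt1a6a and -1.83 in females and -1.91 in males for Ugt2b36. It was -1.28 in females and -2.15 in males for Sult1d1, -0.91 in females and -1.02 in males for Sult1a1 and -1.25 in females and -1.70 in males for Gstk1. These 6 members were therefore lower in the distal library of both sexes. For the 2 members that rose, it was 0.89 in females and 0.67 in males for Gstm6 and 0.88 in females and 0.73 in males for Gstm7, higher in the distal library of both sexes. All of these members were picked because they were called in these same libraries, so the agreement of the sexes adds no support. Ugt2b36 had also entered the test only through its proximal libraries.

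Summed over a family, levels are given as mean ± SD over 2 libraries, as a description with no test. The Ugt1 sum was 171 ± 9.09 FPKM in distal, 204 ± 19.0 FPKM in middle and 459 ± 149 FPKM in proximal colon. The Sult1 sum was 449 ± 46.1 FPKM in distal, 518 ± 28.3 FPKM in middle and 830.5 ± 37.9 FPKM in proximal colon, with Sult1a1 at 53.5% to 60.4% of it in every library. The Ugt2 sum was 204 ± 28.3 FPKM in distal, 217 ± 26.7 FPKM in middle and 272 ± 30.1 FPKM in proximal colon, of which Ugt2b34 made up 94.5% (female) and 92.7% (male) in distal and 83.3% (female) and 82.7% (male) in proximal colon. The Gstm sum, by contrast, was 609 ± 36.8 FPKM in distal, 578 ± 86.1 FPKM in middle and 513 ± 89.5 FPKM in proximal colon. The Gsto sum was 515 ± 25.0 FPKM in distal, 459 ± 71.4 FPKM in middle and 531 ± 66.1 FPKM in proximal colon, nearly all from Gsto1, and the Gstp sum was 200.5 ± 28.7 FPKM in distal, 177 ± 21.7 FPKM in middle and 268 ± 69.8 FPKM in proximal colon. Over all 21 Gst entries the sum was 1625 ± 36.0 FPKM in distal, 1515 ± 212 FPKM in middle and 1697 ± 279.8 FPKM in proximal colon, a change smaller than the spread of the proximal libraries. The distal sum was 0.512 of the proximal sum for the Ugt entries, 0.547 for the Sult entries and 0.958 for the Gst entries.

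**Figure D4:**
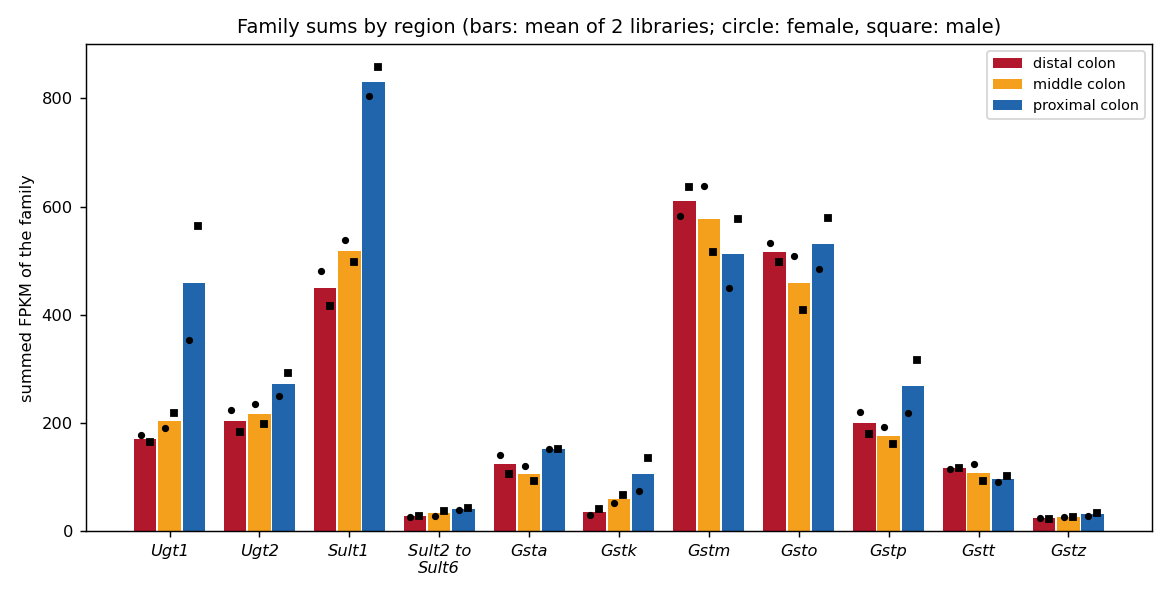
Summed FPKM of each enzyme family by region (bars: mean of 2 libraries, circles: female, squares: male). The Ugt1 bars stand at 171 FPKM in distal and 459 FPKM in proximal colon and the Sult1 bars at 449 FPKM in distal and 830.5 FPKM in proximal colon, while the Gstm bars stand at 609 FPKM in distal and 513 FPKM in proximal colon.

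Of 6 genes listed for cofactor supply, not all of them specific to UDP-glucuronic acid, 3 fell, 1 rose and 2 were not called in distal colon. Over all genes 7.64% fell and 6.47% rose there. Ugdh, which makes UDP-glucuronic acid, was at 151 (female) and 152 (male) FPKM in distal colon, 204 (female) and 212 (male) FPKM in middle colon and 379 (female) and 640.3 (male) FPKM in proximal colon. Slc35d1, which carries UDP-glucuronic acid into the endoplasmic reticulum, was at 7.29 (female) and 8.97 (male) FPKM in distal colon, 7.94 (female) and 18.8 (male) FPKM in middle colon and 26.3 (female) and 58.5 (male) FPKM in proximal colon. In both genes the proximal libraries lay above all distal and middle ones, and both fell in distal colon (Ugdh: log2 difference -1.69 ± 0.21 SE, adjusted p by limma = 0.00807; Slc35d1: log2 difference -2.15 ± 0.24 SE, adjusted p by limma = 0.00638), Slc35d1 also in middle colon (log2 difference -1.60 ± 0.24 SE, adjusted p by limma = 0.0403). The others called were Slc35d2, which fell, and Slc35a3, which rose, both transporters of nucleotide sugars.

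Of 8 measured genes of sulfate and PAPS supply, 1 fell, 1 rose and 6 were not called, beside 14.1% of all genes called. Papss2, a synthase that makes PAPS, was at 96.0 (female) and 110.2 (male) FPKM in distal colon, 108 (female) and 158 (male) FPKM in middle colon and 201 (female) and 418 (male) FPKM in proximal colon. Papss2 fell in distal colon (log2 difference -1.49 ± 0.21 SE, adjusted p by limma = 0.0114). Papss1, the other synthase, was at 58.3 (female) and 60.1 (male) FPKM in distal colon, 58.0 (female) and 53.7 (male) FPKM in middle colon and 54.6 (female) and 51.0 (male) FPKM in proximal colon. Papss1 was not called (log2 difference 0.16 ± 0.10 SE, adjusted p by limma = 0.340). Slc26a2, a sulfate transporter, was at 282 (female) and 386 (male) FPKM in distal colon, 244 (female) and 234 (male) FPKM in middle colon and 159 (female) and 182 (male) FPKM in proximal colon. It rose in distal colon (log2 difference 0.95 ± 0.15 SE, adjusted p by limma = 0.0158).

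Of 16 measured genes of glutathione synthesis, recycling and breakdown, 1 fell (Ggt1), 1 rose (Ggt6) and 14 were not called in distal colon, a share near the 14.1% of all genes. Ggt1 reached 1 FPKM in the proximal libraries alone and so entered the test only through the region where it is high. Gclc and Gclm, the subunits of the rate-limiting synthesis enzyme, had differences of -0.47 and -0.61 on the log2 scale (limma adjusted p = 0.14 and 0.079). Of 7 other transferases of this kind 1 fell, Ltc4s, for which both distal values are 0, and of 5 glutathione peroxidases 1 fell, Gpx4. Mgst3, a membrane-bound transferase, was at 1243 (female) and 1300.3 (male) FPKM in distal colon, 1295 (female) and 1382 (male) FPKM in middle colon and 1343 (female) and 1627 (male) FPKM in proximal colon. These levels were above those of every member in every library. Of 22 measured genes of the Nrf2 pathway, which induces many conjugation enzymes, 8 fell and 0 rose in distal colon, beside 7.64% of all genes lower and 6.47% higher. Their median log2 difference was -0.51, and 21 of 22 fitted values were below 0, as were 5788 of 11815 over all genes. Nfe2l2, which encodes Nrf2 itself, was at 98.5 (female) and 90.0 (male) FPKM in distal colon, 99.2 (female) and 116 (male) FPKM in middle colon and 153 (female) and 165 (male) FPKM in proximal colon. It fell in distal colon (log2 difference -0.75 ± 0.12 SE, adjusted p by limma = 0.0175). Nqo1, a quinone reductase and Nrf2 target, was at 13.7 (female) and 24.4 (male) FPKM in distal colon, 29.7 (female) and 35.2 (male) FPKM in middle colon and 50.9 (female) and 78.8 (male) FPKM in proximal colon. It fell as well (log2 difference -1.74 ± 0.15 SE, adjusted p by limma = 0.00358). The other 6 were Me1, Taldo1, Srxn1, Osgin1, Akr1b8 and Tkt. Of 8 deconjugating enzymes and their activators 0 were called by limma, and of 8 other conjugation enzymes 2 rose (Acsm3 and As3mt) and 1 fell (Mettl7b), beside the same 14.1% of all genes.

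**Figure D5:**
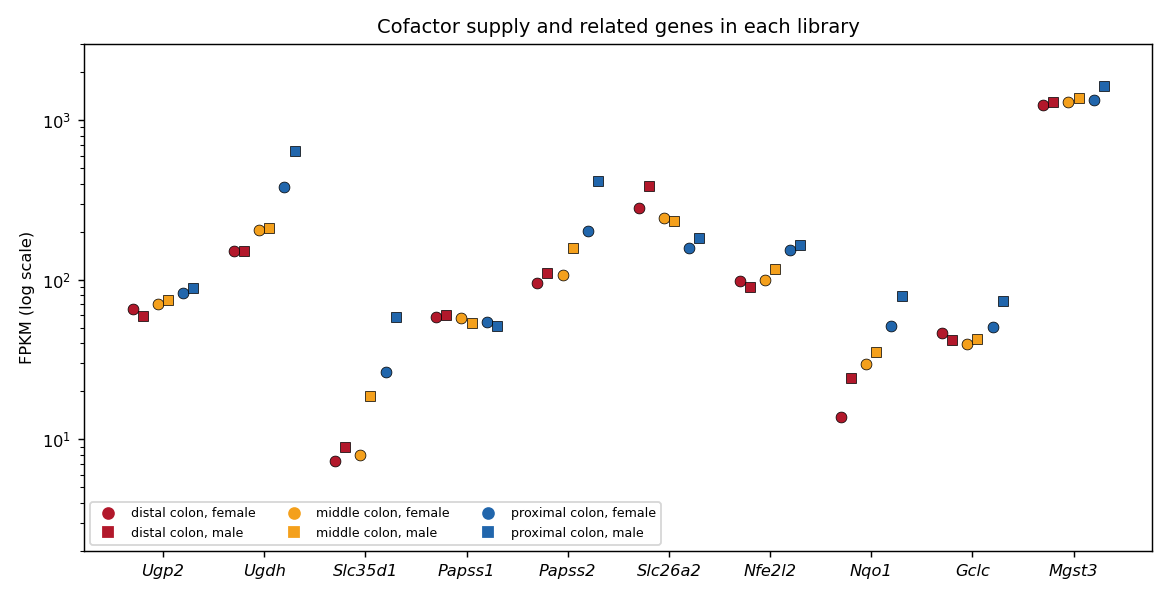
FPKM (log scale) of 10 genes of cofactor supply and related pathways in each library (colours: region, circles: female, squares: male), picked from the lists after their values were seen. Ugdh, Slc35d1, Papss2 and Nqo1 are lower in both distal than in both proximal libraries, Slc26a2 is higher, and Mgst3 lies between 1243 and 1627 FPKM in all 6.

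The 28 entries not detected included 15 listed at 0 in all 6 libraries, which can also reflect a failed estimate. Among them were Sult1e1, the estrogen sulfotransferase, the 8 entries Sult2a1 to Sult2a8, which sulfate hydroxysteroids and bile acids in liver, and Ugt2a3, Ugt2b37, Ugt2b38, Ugt1a10, Sult3a1 and Sult5a1. The others were Gsta2, Gsto2, Gstt4, Sult1c1, Sult4a1, Sult6b1, Ugt1a2, Ugt1a5, Ugt1a6b, Ugt1a9, Ugt2a1, Ugt2a2 and Ugt2b1, and none exceeded 1.53 FPKM. The entries nearest to the detection limit were Ugt1a6b, at 1.53 FPKM in the female proximal library, Ugt1a2, at 1.12 FPKM in the male proximal library, and Gsto2, at 1.095 FPKM in the female distal library, each above 1 FPKM in 1 library. Just inside it was Ugt2b36, above 1 FPKM in 2.

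Markers of cell types also differed along the colon. The counts below stand beside 7.64% of all genes lower and 6.47% higher in distal than in proximal colon. Of 8 lymphocyte markers 4 fell in distal colon, and their summed level was 5.45 (female) and 4.61 (male) FPKM in distal and 23.9 (female) and 55.9 (male) FPKM in proximal colon. Among the 8, Cd8a and Gzmb reached 1 FPKM in the proximal libraries alone, and so entered the test only through the region where they are high. Outside proximal colon, Cd3e, Cd3g, Gzma and Itgae reached 1 FPKM in a single middle library each, so they too needed a proximal library to enter. The count of lymphocyte markers that fell is therefore a description and supports nothing. Of 8 surface colonocyte markers 3 fell, and their sum was 7122 (female) and 8264 (male) FPKM in distal and 16762 (female) and 28978 (male) FPKM in proximal colon. Car1 alone was at 2989 (female) and 2225 (male) FPKM in distal and 6685 (female) and 19757 (male) FPKM in proximal colon. The list did not move as a whole: Car4, Slc26a3, Aqp8 and Ceacam20, 4 of the 8, were higher in both distal than in both proximal libraries. Of 7 goblet cell markers 4 rose and 2 fell, with sums of 8251 (female) and 7102 (male) FPKM in distal and 5712 (female) and 4641 (male) FPKM in proximal colon. Of 5 small intestine markers, 3 of them tested, 2 fell. The sum of the 5 was 19.8 (female) and 12.4 (male) FPKM in distal and 42.9 (female) and 50.1 (male) FPKM in proximal colon. Apoa4 was listed at 0 in all 6 libraries, and Sis, 1 of the 2 that fell, reached 1 FPKM in the proximal libraries alone. Alpi, an intestinal alkaline phosphatase, was at 1.04 (female) and 1.55 (male) FPKM in distal and 26.1 (female) and 24.0 (male) FPKM in proximal colon. Of 5 enteroendocrine markers, 4 of them tested, 2 fell and 1 rose, and of 4 tuft cell markers, 2 of them tested, 1 fell. Their sums were 161 (female) and 119 (male) FPKM in distal and 172 (female) and 242 (male) FPKM in proximal colon for enteroendocrine markers, and 0.808 (female) and 1.11 (male) FPKM in distal and 4.52 (female) and 3.11 (male) FPKM in proximal colon for tuft cell markers. The part of these shifts in the differences of the conjugation enzymes was not tested. Summed markers of B and plasma cells, fibroblasts and endothelium reached at most 1.26, 3.33 and 2.27 FPKM in any library. Those of myeloid cells and smooth muscle reached at most 5.67 and 7.19 FPKM. The red cell sum was higher, at 35.0 (female) and 129 (male) FPKM in distal colon and 94.7 (female) and 115 (male) FPKM in middle colon. In proximal colon it was 38.5 (female) and 135 (male) FPKM.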

How the data were processed

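RNA-seq values of 6 libraries of colon epithelial cells were used as FPKM per gene, deposited by the authors. Per the labels' protocols, total RNA was made into stranded libraries of polyadenylated RNA. Per the submitters' processing notes, Cuffdiff 2.2.1, TopHat2 2.1.1, SAMtools 0.1.18 and Bowtie2 2.2.8 were used, and the build was mm10. Their settings, the annotation and the use of strand were not given in the sources used here.

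Since the values are normalized, count models do not apply. They were analysed as log2(FPKM + 1), which understates changes near 1 FPKM. Genes with at least 1 FPKM in at least 2 libraries entered the tests (11815 of 24346). Region and sex were fitted with limma 3.58.1 (R 4.3.3) over 6 libraries (2 residual and 3.49 prior degrees of freedom, variances moderated along the mean), and the fit was tested on simulated data. Region by sex leaves no residual degrees of freedom and was not fitted. Depth was estimated from the spacing of values under 0.2 FPKM, for genes with 1 transcript longer than 1500 bases and an assumed fragment length of 200 bases. Gene positions and transcripts come from GENCODE M21 and promoters from RefSeq (GRCm38.p6). Identity is the share of aligned bases in an end-to-end alignment of the longest coding sequences.

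Members and lists were chosen with earlier results of these data known. Values are given per library for detected members that passed a test or averaged at least 20 FPKM. Each of these was tried in turn: quantile or median-ratio scaling, a 0.1 pseudocount, no filter or one at 5 FPKM, a model with no variance trend, without sex or without region, and every library removed. Without a library, the lone library of its region is assumed to vary like the others. Figures were drawn with matplotlib 3.10.9.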

Additional observations from a re-analysis of the deposited data

Results flagged for a closer look

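2 members moved in opposite directions in the sexes by at least 0.3 on the log2 scale in each. Gstp2 was higher in distal than in proximal colon by 0.39 in the female libraries and differed by -0.44 in the male libraries, a gap of 0.84 between the sexes. Gstt1 was higher in middle than in proximal colon by 0.67 in the female libraries and differed by -0.49 in the male libraries, a gap of 1.16. With 1 library per sex and region these differences between the sexes were not tested. Smaller opposite movements bring the count to 5 of 30 members for distal against proximal, 10 for middle against proximal and 9 for distal against middle colon.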

How the results depend on the processing

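No member called between regions changed direction under any alternative that was run. In several of these the direction could not change. The other filters, the model without the variance trend and the model without sex left every fitted difference between regions as it was. Removing a library also left the difference between the remaining regions as it was. The unchanged direction in those settings adds no support. Over all called members and alternatives, 173 calls stayed past the threshold and 59 did not. The 12 members called between distal and proximal colon numbered 8 to 12 under the alternatives that kept all libraries, and 6 to 14 without single libraries (6 without the male distal and 7 without the female distal library, where the calls over all genes also went to 340 and 770). Gstm6 and Gstm7 were not called without a filter. The 5 members called between middle and proximal colon numbered 2 with a pseudocount of 0.1, 1 without a filter, 2 without the variance trend and 0 without sex in the model (limma, 12 at an unadjusted p under 0.05), and 0 to 12 without single libraries. Ugt1a1, called between distal and middle colon, was not called without a filter, without the variance trend or without sex in the model (0 members each by limma, 9, 7 and 4 at an unadjusted p under 0.05), and 0 to 3 members were called without single libraries. Female against male gave 0 called members in every alternative run (limma, 0 to 7 at an unadjusted p under 0.05). Over all genes, the 289 calls between middle and proximal colon numbered 4 without a filter, 187 without the trend and 24 without sex, and the 59 between distal and middle colon numbered 2, 29 and 17. Members detected numbered 32 at 0.5 FPKM and 29 at 5 FPKM. With median-ratio scaling the Gsta sum in proximal colon was 151.9 in place of 151.6 FPKM, more than its SD of 0.209, and no other family sum moved by more than its SD.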
